A study of Homo sapiens with 4 samples.

Results

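The transcripts of the mitochondrial genome were taken as the rows of the expression table whose gene name starts with MT-, which gave 37 genes of 55764 listed. They are 13 mRNAs, 2 rRNAs and 22 tRNAs, and 28 of them are transcribed as heavy-strand genes and 9 as light-strand genes. All 37 were in the table, and 20 passed a filter of mean FPKM at or above 1, where FPKM is a read level scaled to gene length and library total. The cells were TE5, labelled as a human oesophageal squamous cell carcinoma line and grown in RPMI-1640 medium. One group carried a vector encoding human ETS1, a transcription factor, behind a CMV promoter (genotype ETS1 Overexpression), and the other carried the empty backbone (labelled WT). Both were delivered by lentivirus and kept after selection, so both groups had been infected and selected, and bulk RNA was sequenced in 2 libraries per group. The series sets out to describe how the transcriptome differs with stable ETS1 overexpression.

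Human mitochondrial DNA is a small circle that is transcribed from both strands into long precursors, from which tRNAs are cut out to release mRNAs and rRNAs. Its mRNAs encode membrane subunits of the complexes of oxidative phosphorylation, while the other subunits and every protein that copies, transcribes and translates the circle come from nuclear genes. Levels of the separate RNAs also depend on how each is processed, adenylated and degraded.

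The libraries were deep, with 40356722 and 44119605 reads recovered for control 1 and 2 and 57269982 and 56502877 for ETS1 1 and 2, so the ETS1 libraries were 1.35 times as deep. Between 14160 and 14326 genes reached 1 FPKM in each library. ETS1 itself stood at 0.491 and 0.509 FPKM in the controls and 1.84 and 1.87 FPKM in the ETS1 libraries, 3.71 times the control mean. The 5 epithelial markers summed to between 16.1 and 16.9 FPKM in the 4 libraries. Most of that sum came from KRT8 and KRT18. KRT8 was 3.87 to 3.91 FPKM in the controls and 6.48 to 6.59 FPKM with ETS1, while KRT18 was 10.2 to 10.55 FPKM against 8.29 to 8.35 FPKM. The other epithelial markers were low. CDH1 was 0.567 to 0.571 FPKM in the controls and 0.917 to 1.08 FPKM with ETS1. EPCAM was 1.36 to 1.37 FPKM against 0.915 to 1.12 FPKM, and KRT19 was at most 0.0224 FPKM. The squamous markers KRT5, KRT14, KRT6A and TP63 were at 0 in both controls and summed to at most 0.0410 FPKM with ETS1. The defining squamous markers were thus absent or nearly so, which goes against the label's cell type. The 3 leukocyte markers summed to 0.338 to 0.383 FPKM, the 3 fibroblast markers to 2.07 to 2.21 FPKM in controls and 2.85 to 2.94 FPKM with ETS1 (nearly all COL1A1), and the endothelial marker VWF to at most 0.0446 FPKM. Whether these differences have a part in the results was not tested. The labels do not say whether the 2 libraries of a group came from separate cultures, so p-values measure the spread between these libraries, which may be technical.

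The share of reads on mitochondrial genes was higher with ETS1 than in controls. It was 3.03% in control 1 (95% Wilson interval 3.021 to 3.032) and 3.06% in control 2 (3.054 to 3.065). In ETS1 1 it was 5.57% (5.568 to 5.580) and in ETS1 2 it was 5.71% (5.707 to 5.720), and these intervals cover counting error only. The groups did not overlap, and the mean share with ETS1 was 1.85 times that of the controls. The mRNAs held 2.68% and 2.71% of reads in the controls and 4.89% and 5.01% with ETS1, and the rRNAs held 0.344% and 0.346% against 0.682% and 0.698%. In bulk RNA, a change in the mix of cells and a change in RNA per cell cannot be told apart. No exact permutation test over 4 libraries can go below p = 0.333, because only 6 arrangements exist.

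All 13 mitochondrial mRNAs and both rRNAs were higher with ETS1. Of the 20 mitochondrial genes tested, 17 were called higher, 0 lower and 3 not called by limma on log2(FPKM + 1) at a Benjamini-Hochberg adjusted p under 0.05, beside a background of 30.7% of all 14306 tested genes called higher and 28.4% called lower. A call was thus common, since 59.1% of all tested genes were called in one direction or the other, or 19.6% of 35055 genes with no expression filter. All 17 also passed at 0.01, where 18.6% of tested genes were called higher, and the 15 mRNAs and rRNAs each had both ETS1 libraries above both controls, as had 43.1% of tested genes. Changes of their size were rarer. The median change was 0.94 on the log2 scale over the 13 mRNAs and 0.016 over all tested genes, and only 0.58% of tested genes, 83 in number, rose by 1 or more, against 5 of the 13 mRNAs. A rise of 0.5 or more was seen in 5.17% of tested genes and in 11 of the 13 mRNAs. The mRNA sum was 31383 and 31563 FPKM in the controls and 54669 and 56408 FPKM with ETS1, a ratio of 1.76 (exact permutation p = 0.333, two-sided).

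**Figure D1:**
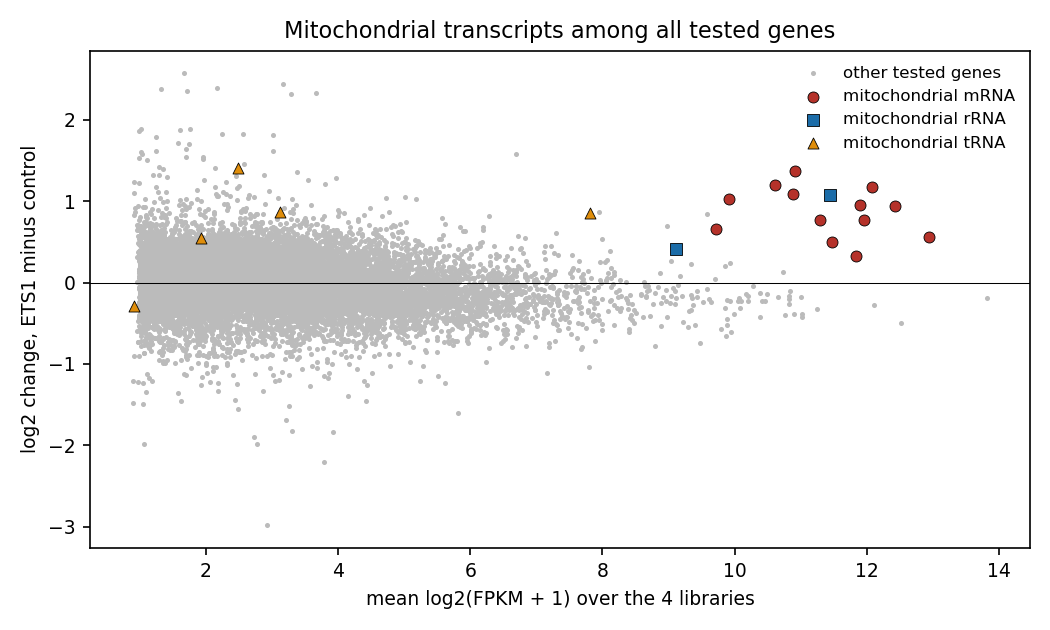
Each point is a tested gene, with its mean log2(FPKM + 1) over the 4 libraries on the x axis and its log2 change, ETS1 minus control, on the y axis; the mitochondrial genes are marked. The mitochondrial mRNAs lie at the right of the plot, at positive changes between 0.32 and 1.37, where most other abundant genes lie near or below 0; MT-ND3 falls below 0 under quantile normalization.

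Scaling bears on these counts. After rescaling to the summed FPKM of genes not encoded by mitochondrial DNA, the median change of all tested genes moved from 0.016 to 0.12 and the share of calls that were higher from 52.0% to 71.8%, and the mRNA median from 0.94 to 1.08. With trimmed-mean scaling the median of all genes was -0.02, 45.2% of calls were higher and the mRNA median was 0.90. With quantile normalization these were 0.01, 52.1% and 0.62. There 14 of the 20 mitochondrial genes tested were called higher and 1, MT-ND3, lower, beside 29.6% and 27.2% of all tested genes. Of the 69 other genes averaging 500 FPKM or more, a set chosen after the values were seen, 52 were called lower and 5 higher. Their median change was -0.22, and 28.4% of all tested genes were called lower and 30.7% higher. The 5 included MTATP6P1 and MTND2P28, nuclear copies of mitochondrial genes whose reads can be mistaken for mitochondrial ones.

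Complex I is the NADH dehydrogenase that feeds electrons from NADH into the respiratory chain, and 7 of its membrane subunits are encoded by mitochondrial DNA. All 7 were called higher, with a median change of 0.96, but by very unequal amounts. MT-ND1, a core membrane subunit, had the largest change of any mitochondrial mRNA as deposited, though under quantile normalization MT-ATP8 (1.26) exceeded it (1.23). It stood at 1185 and 1214 FPKM in the controls and 3180 and 3024 FPKM with ETS1. The ETS1 libraries were both far above the controls, by 2.59 times (log2 change 1.37, SE 0.040, limma adjusted p = 0.000369).

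MT-ND2, a proton-pumping subunit and the next mRNA on the map, moved less. It stood at 2370 and 2383 FPKM in the controls and 3322 and 3401 FPKM with ETS1, 1.41 times the control mean (log2 change 0.50, SE 0.035, limma adjusted p = 0.00075). The groups did not overlap, but the change fell to 0.04 under quantile normalization (limma adjusted p = 0.196). MT-ND3, another membrane subunit, had the smallest change, at 3336 and 3167 FPKM in the controls and 3948 and 4200 FPKM with ETS1. It was higher in both ETS1 libraries as deposited (log2 change 0.32, SE 0.051, limma adjusted p = 0.00534), but turned to -0.29 under quantile normalization (adjusted p = 0.00181) and missed the threshold with no expression filter (adjusted p = 0.129).

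MT-ND4 and MT-ND4L, whose reading frames overlap, were both higher. MT-ND4, a proton-pumping subunit, stood at 2718 and 2762 FPKM in the controls and 5207 and 5426 FPKM with ETS1 (log2 change 0.96, SE 0.040, limma adjusted p = 0.000439). MT-ND4L, a small membrane subunit, stood at 1292 and 1287 FPKM in the controls and 2721 and 2784 FPKM with ETS1 (log2 change 1.09, SE 0.033, limma adjusted p = 0.000369). Neither overlapped between groups. Under quantile normalization the changes were 0.48 for MT-ND4 and 0.94 for MT-ND4L. How reads in the shared bases were counted is not given in the sources used here. The end of MT-ND4L (chrM:10727-10766, plus strand, GENCODE 29 on GRCh38) is shown because of this overlap, with the 7 bases it shares with MT-ND4 in capitals.

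MT-ND4L 3′ end: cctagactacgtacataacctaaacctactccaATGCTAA

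MT-ND5, a further proton-pumping subunit, was among the lowest mRNAs, at 662 and 689 FPKM in the controls and 1348 and 1401 FPKM with ETS1, a clear separation of the groups (log2 change 1.02, SE 0.038, limma adjusted p = 0.000439). MT-ND6 is the mRNA encoded on the light strand. It stood at 684 and 648 FPKM in the controls and 1005 and 1104 FPKM with ETS1, so both ETS1 libraries were again higher (log2 change 0.66, SE 0.057, limma adjusted p = 0.00116).

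Complex III carries a single mitochondrially encoded subunit, cytochrome b, made from MT-CYB. It stood at 1936 and 1912 FPKM in the controls and 3365 and 3208 FPKM with ETS1, with no overlap (log2 change 0.77, SE 0.039, limma adjusted p = 0.000505).

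Complex IV, the cytochrome c oxidase that passes electrons to oxygen, has its catalytic core encoded by MT-CO1, MT-CO2 and MT-CO3, and all 3 were called higher. MT-CO1, the catalytic subunit, stood at 2830 and 2921 FPKM in the controls and 6427 and 6596 FPKM with ETS1 (log2 change 1.18, SE 0.040, limma adjusted p = 0.000417). MT-CO3, a core subunit, stood at 3928 and 3982 FPKM in the controls and 7425 and 7800 FPKM with ETS1 (log2 change 0.94, SE 0.044, limma adjusted p = 0.000482). Both were well above the controls in each ETS1 library, with changes of 0.71 and 0.61 under quantile normalization. MT-CO2, the copper-binding subunit and the most abundant mitochondrial mRNA in all 4 libraries, stood at 6375 and 6556 FPKM in the controls and 9503 and 9635 FPKM with ETS1. Its change was the smallest of the 3 (log2 change 0.57, SE 0.042, limma adjusted p = 0.000832), and it was 0.21 under quantile normalization and missed the threshold with no expression filter (adjusted p = 0.106).

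Complex V, the ATP synthase, takes its proton channel subunit a from MT-ATP6 and a small membrane subunit from MT-ATP8. MT-ATP6 stood at 3061 and 2986 FPKM in the controls and 4997 and 5319 FPKM with ETS1 (log2 change 0.77, SE 0.047, limma adjusted p = 0.000626), and dropped to a change of 0.05 under quantile normalization (adjusted p = 0.276). MT-ATP8 stood at 1006 and 1058 FPKM in the controls and 2221 and 2512 FPKM with ETS1 (log2 change 1.19, SE 0.069, limma adjusted p = 0.000581). Both were higher in each ETS1 library, MT-ATP8 by the larger factor, although the genes lie on 1 bicistronic stretch and share 46 bases. The end of MT-ATP8 (chrM:8513-8572, plus strand) is shown with the bases shared with MT-ATP6 in capitals.

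MT-ATP8 3′ end: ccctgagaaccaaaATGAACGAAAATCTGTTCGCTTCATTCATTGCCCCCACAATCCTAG

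Summed by complex, the FPKM ratio of ETS1 to control was 1.72 for complex I, 1.71 for complex III, 1.78 for complex IV and 1.86 for complex V. The complexes thus moved by like amounts in sum, while members within a complex differed. On the log2 scale they ranged from 0.32 to 1.37 in complex I, 0.57 to 1.18 in complex IV and 0.77 to 1.19 in complex V.

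**Figure D2:**
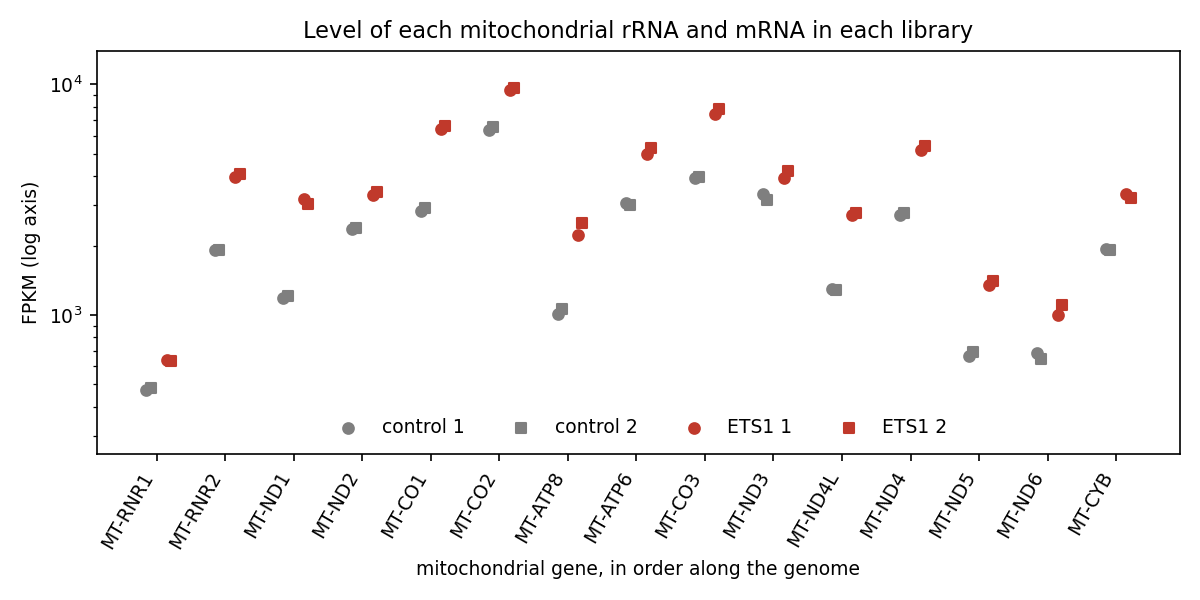
FPKM on a log axis for the 2 rRNAs and 13 mRNAs in the order of the genome, with 1 point for each library and control and ETS1 libraries marked separately. The groups do not overlap for any of the 15 as deposited; MT-CO2 is highest and MT-RNR1 lowest in both groups, and the gap at MT-ND3, which reverses under quantile normalization, is the smallest.

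The rRNAs are the RNA parts of the mitochondrial ribosome. The 12S rRNA of the small subunit, from MT-RNR1, stood at 472 and 483 FPKM in the controls and 638 and 633 FPKM with ETS1 (log2 change 0.41, SE 0.029, limma adjusted p = 0.00075). The 16S rRNA of the large subunit, from MT-RNR2, stood at 1908 and 1915 FPKM in the controls and 3968 and 4072 FPKM with ETS1 (log2 change 1.07, SE 0.035, limma adjusted p = 0.000417). Both were higher with ETS1, the 16S by 0.66 more on the log2 scale, or by 0.29 more under quantile normalization. The ratio of 16S to 12S was 4.01 in the controls and 6.33 with ETS1, and the log2 difference of 12S from 16S fell by 0.66, from -2.01 and -1.99 to -2.64 and -2.68 (exact permutation p = 0.333). These genes are separated on the map only by the valine tRNA gene MT-TV (chrM:1602-1670, plus strand), which had at most 5 reads in any library and is shown because the change differs on either side of it.

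MT-TV: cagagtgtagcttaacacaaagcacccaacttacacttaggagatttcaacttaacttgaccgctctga

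Library preparation can deplete rRNA, and whether it did is not given in the sources used here. The mean rRNA level against the mean mRNA level was -1.05 and -1.03 in the controls and -1.15 and -1.19 with ETS1 on the log2 scale, a change of -0.13 (exact permutation p = 0.333) that turned to 0.23 when the median mRNA was used in place of the mean. No direction for rRNA against mRNA as classes can be read from this.

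Neighbouring genes of the heavy strand differed in how much they changed. The 12 steps between neighbouring heavy-strand rRNA and mRNA genes left out those to and from MT-ND6. As deposited, the change across them differed by a median of 0.62 on the log2 scale. The differences ran from 0.07 between MT-ND4 and MT-ND5 to 0.87 between MT-ND1 and MT-ND2, and 7 steps exceeded 0.5. A single scaling factor per library cancels in such ratios, but quantile normalization is not one. MT-ND1 over MT-ND2 went from 0.505 to 0.923 and MT-CO1 over MT-CO2 from 0.445 to 0.680. MT-ND4L over MT-ND3 went from 0.397 to 0.676 and MT-ATP8 over MT-ATP6 from 0.342 to 0.458. MT-ND4L over MT-ND4 went from 0.471 to 0.518. In each of these 5 ratios the libraries of the groups did not overlap, and each had the smallest exact permutation p possible, 0.333, as did all 32 within-library sums and ratios computed. Under quantile normalization the log2 differences behind these ratios kept their sign but not their size, going from 0.87 to 1.19 for MT-ND1 over MT-ND2, from 0.61 to 0.50 for MT-CO1 over MT-CO2 and from 0.77 to 1.23 for MT-ND4L over MT-ND3. They went from 0.42 to 1.20 for MT-ATP8 over MT-ATP6 and from 0.14 to 0.46 for MT-ND4L over MT-ND4. The order of the steps changed too, with MT-ND4L over MT-ND3 (1.23) above MT-ND1 over MT-ND2 (1.19). MT-ND4 changed by 0.48 and MT-ND5 by 1.14 under quantile normalization, so that step was no longer small.

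**Figure D3:**
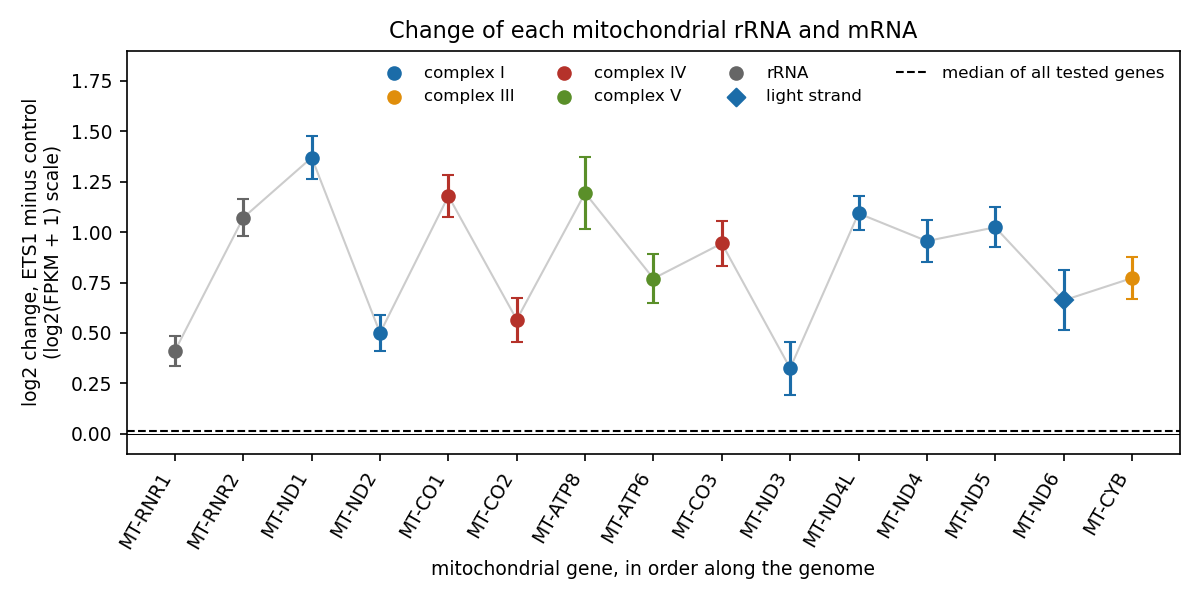
Log2 change, ETS1 minus control, of the 2 rRNAs and 13 mRNAs in map order, coloured by complex, with bars showing the 95% confidence interval from limma. The changes go up and down from gene to gene, with MT-ND1 at 1.37 beside MT-ND2 at 0.50, and all 15 are above 0 as deposited; MT-ND3, at 0.32, is -0.29 under quantile normalization.

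As a share of the summed mRNA level, MT-CO2 went from 20.3% and 20.8% in the controls to 17.4% and 17.1% with ETS1. MT-ND3 went from 10.6% and 10.0% to 7.22% and 7.45%, and MT-ND2 from 7.55% in each control to 6.08% and 6.03%. The shares that were higher with ETS1 included MT-CO1, from 9.02% and 9.25% to 11.8% and 11.7%, and MT-ND1, from 3.78% and 3.84% to 5.82% and 5.36%. The order of levels moved with them. MT-CO2 and MT-CO3 led in both groups, then MT-ND3, MT-ATP6, MT-CO1 and MT-ND4 in the controls, against MT-CO1, MT-ND4, MT-ATP6 and MT-ND3 with ETS1. Neighbours in that order overlapped between libraries for MT-CYB and MT-RNR2, and for MT-ND5 and MT-ND6, in the controls. With ETS1 they overlapped for MT-ND4 and MT-ATP6, for MT-ND3 and MT-RNR2, and for MT-ND2 and MT-CYB.

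**Figure D4:**
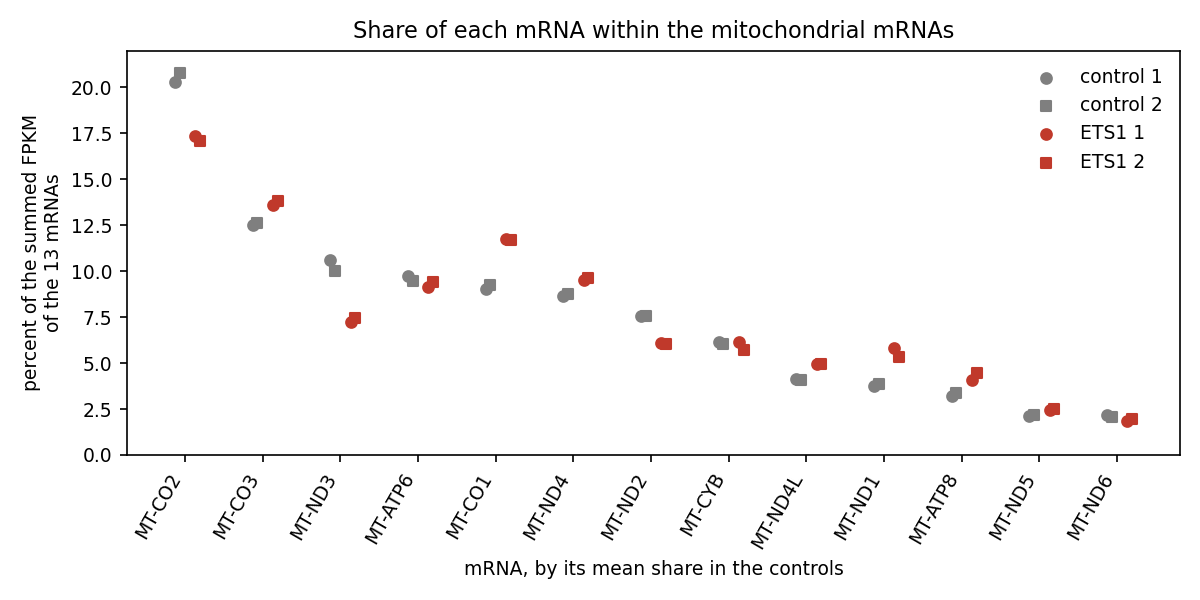
Share of each mRNA in the summed FPKM of the 13 mitochondrial mRNAs, in percent, for each library of both groups. MT-CO2 and MT-ND3 hold smaller shares with ETS1, MT-CO1 and MT-ND1 larger ones, and the libraries of a group lie close together.

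The uneven change was set beside properties of the genes. Across the 13 mRNAs, Pearson's r between the log2 change and gene length was 0.24, GC percent 0.34 and start position -0.24, each a description over genes that share the same 4 libraries. With the control level it was -0.41, or -0.58 over the 12 heavy-strand mRNAs, but the change is computed from those same control values. Several mRNAs lack a complete stop codon in the genome, and adenylation after cleavage completes it. The 6 mRNAs ending in T or TA had a median change of 0.86 (0.32 to 1.37) and the other 7 a median of 1.02 (0.57 to 1.19), so the ranges overlapped. To show these ends, the last 30 bases of MT-ND1 and MT-ND2, MT-ND3, MT-CO1 and MT-CO2, and MT-ND6 are printed in that order, with the final stop bases in capitals (chrM:4233-4262, chrM:5482-5511, chrM:10375-10404, chrM:7416-7445 and chrM:8240-8269, plus strand, and chrM:14149-14178, minus strand).

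MT-ND1 3′ end: tacaatctccagcattccccctcaaaccTA

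MT-ND2 3′ end: ctatctccccttttatactaataatcttaT

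MT-ND3 3′ end: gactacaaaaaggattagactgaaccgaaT

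MT-CO1 3′ end: ttcgaagaacccgtatacataaaatctAGA

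MT-CO2 3′ end: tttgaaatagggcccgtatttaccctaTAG

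MT-ND6 3′ end: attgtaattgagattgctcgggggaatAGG

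MT-ND1 and MT-ND2, with the largest and the second smallest change in complex I, both end in an incomplete stop codon. MT-CO1 and MT-CO2 both end in 3 bases, AGA and TAG.

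By strand, the light-strand mRNA MT-ND6 against the mean of the 12 heavy-strand mRNAs was -1.64 and -1.74 in the controls and -1.97 and -1.87 with ETS1 on the log2 scale. The change was -0.23 (exact permutation p = 0.333) and turned to 0.12 with the median of the heavy-strand mRNAs, so no direction between strands can be read. Whether the counting used strand is not given in the sources used here, and without it reads from MT-ND6 and from the opposite strand cannot be told apart.

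Mature tRNAs are short and folded, and few reads fell on their genes. Of the 22, 14 had 0 reads in every library, where a count of 0 allows up to 3 reads. These were MT-TL2, MT-TI, MT-TQ, MT-TM, MT-TW, MT-TA, MT-TN, MT-TS1, MT-TS2, MT-TD, MT-TK, MT-TG, MT-TR and MT-TH. MT-TP, the proline tRNA on the light strand, held most tRNA reads, at 431 and 522 in the controls and 1191 and 1122 with ETS1. In FPKM it was 159 and 176 against 309 and 295, higher in both ETS1 libraries (log2 change 0.85, SE 0.057, limma adjusted p = 0.00072). It lies beyond MT-CYB on the opposite strand (chrM:15956-16023, minus strand), and without strand its reads and those of a transcript running on from MT-CYB cannot be told apart.

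MT-TP: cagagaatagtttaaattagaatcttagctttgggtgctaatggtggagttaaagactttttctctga

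The cysteine tRNA MT-TC, also on the light strand, had 27 and 34 reads with ETS1 and 5 and 9 in the controls, the other tRNA called higher (log2 change 1.41, SE 0.20, limma adjusted p = 0.00381). Its neighbour MT-TY, the tyrosine tRNA, had 20 and 11 reads against 31 and 51 and was not called (0.87, limma adjusted p = 0.0853), with an adjusted p of 0.0485 by voom on the recovered reads of all 4 libraries, 0.0467 without ETS1 replicate 1 and 0.0221 without control replicate 1. MT-TF, the phenylalanine tRNA ahead of the rRNAs, had 8 and 5 reads against 14 and 15 and was not called (0.55, limma adjusted p = 0.053), with an adjusted p of 0.0322 in the 4 libraries rescaled to nuclear genes, 0.0028 without control replicate 1 and 0.0282 without control replicate 2. A leucine tRNA, MT-TL1, had 7 and 1 reads against 3 and 3, overlapping groups with no call (-0.29, limma adjusted p = 0.601). Its direction rested on 1 library, being 0.39 without control replicate 1 (adjusted p = 0.0332) and -0.96 without control replicate 2 (adjusted p = 0.00291). In fits without a library, 1 group is a lone library assumed to vary like the other group, so with these few reads they were not taken as calls. MT-TV, MT-TE and MT-TT had at most 5 reads in any library and did not pass the expression filter.

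Nuclear chromosomes carry old copies of mitochondrial DNA whose reads can be mistaken for those of the circle. Of 188 such copies listed, 151 were at 0 in every library and 4 were tested, all called higher beside 30.7% of all tested genes. MTATP6P1 (chr1:633696-634376, GRCh38) is 98.5% identical to MT-ATP6 over 681 bases with 15254 and 17710 control reads and 39681 and 40035 with ETS1 (log2 change 0.85, limma adjusted p = 0.000482). MTND2P28 (chr1:629640-630683), named after its value was seen, is 98.4% identical to MT-ND2 over 1042 bases and had 16344 and 18643 reads against 38769 and 37649 (log2 change 0.70, limma adjusted p = 0.000482). MTND1P23, a copy of MT-ND1, had 165 and 179 reads with ETS1 against 46 and 59 control reads (1.08, limma adjusted p = 0.000798), and MTND4P12, a copy of MT-ND4, had 872 and 1336 against 445 and 468 (0.74, limma adjusted p = 0.0257). The 2 abundant copies held 15.3% to 16.9% of the reads of the MT-ATP6 pair and 14.1% to 16.3% of the MT-ND2 pair. These shares count only reads assigned to a copy or to its gene. How reads fitting both places were handled is not given in the sources used here, so the shares do not bound the uncertainty. Copies were listed by gene name, so those under other names were not examined. Adding the reads of the copies, an alternative chosen after seeing the data, moved MT-ND2 from 0.50 to 0.53 and MT-ATP6 from 0.77 to 0.78 and left 17 mitochondrial genes called.

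The nuclear genes that act on mitochondrial DNA and RNA moved in both directions. Of 49 such factors, 48 were tested, of which 10 were called higher and 22 lower, beside the 30.7% and 28.4% of all tested genes, and their median change was -0.09. After rescaling to nuclear genes, 17 were called higher and 12 lower with a median of 0.04, beside 45.5% of all tested genes called higher, 17.9% lower and a median of 0.12. The sign of the list's median thus turned with the scaling, and it lay below that of all genes in both. POLRMT, the mitochondrial RNA polymerase, stood at 14.1 FPKM in each control and 12.4 and 11.8 FPKM with ETS1 (log2 change -0.21, limma adjusted p = 0.00743), but missed the threshold after that rescaling (adjusted p = 0.0816). TFAM, which packages the DNA and starts transcription, stood at 19.3 and 17.95 FPKM against 20.1 and 20.2 FPKM and was not called (0.11, limma adjusted p = 0.0774), though it passed under quantile normalization (adjusted p = 0.025) and after rescaling to nuclear genes (0.00896).

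Other initiation and elongation factors showed small changes. TFB2M, which melts the promoter with the polymerase, had a change of -0.23 (limma adjusted p = 0.00929), lost after rescaling to nuclear genes (0.0598), and TEFM, the elongation factor, one of -0.05 (limma adjusted p = 0.46). LRPPRC and SLIRP form a complex that stabilises mitochondrial mRNAs. LRPPRC stood at 24.5 and 24.3 FPKM against 23.5 and 23.8 FPKM and was not called (-0.04, limma adjusted p = 0.225), while SLIRP stood at 47.1 and 45.9 FPKM against 31.6 and 30.6 FPKM and was lower (-0.57, limma adjusted p = 0.000557). As deposited, the largest change of the list was in SSBP1, which binds single-stranded mitochondrial DNA. It stood at 62.9 and 63.7 FPKM against 40.7 and 38.9 FPKM (-0.66, limma adjusted p = 0.000482). TOP1MT, the mitochondrial topoisomerase, at -0.57, and HSD17B10, a subunit of mitochondrial RNase P, at -0.57, were lower as well. TRMT10C, another RNase P subunit named after its value was seen, stood at 24.3 and 22.7 FPKM against 33.3 and 32.9 FPKM and was higher (0.48, limma adjusted p = 0.00106), also under the 3 other scalings. SLIRP, SSBP1, TOP1MT and HSD17B10 stayed lower past the threshold under all 3 other scalings. Under quantile normalization TOP1MT (-0.58) and TRMT10C (0.57) changed more than SSBP1 (-0.53). Rescaled to nuclear genes, TRMT10C (0.61) changed more than SSBP1 (-0.53).

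The subunits of the complexes that nuclear genes encode were mostly lower. Of 79, 77 were tested, of which 58 were called lower, 1 higher and 18 not called, beside 28.4% of all tested genes called lower and 30.7% higher. The median change was -0.24. With the other scalings, 62 (trimmed mean), 39 (quantile) and 40 (rescaled to nuclear genes) were called lower, with medians of -0.28, -0.11 and -0.11, beside 31.8%, 27.2% and 17.9% of all tested genes. By complex, 22 of 35 tested were lower in complex I, 1 of 4 in complex II, 8 of 9 in complex III, 10 of 11 in complex IV and 17 of 18 in complex V. Under quantile normalization 17, 1, 5, 6 and 10 were lower in complexes I to V, and rescaled to nuclear genes 15, 1, 6, 6 and 12. Complex II has no mitochondrially encoded subunit, and its subunits SDHC (-0.09, limma adjusted p = 0.129) and SDHD (0.04, limma adjusted p = 0.617) were not called.

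Among them, COX5A of complex IV stood at 306 and 300 FPKM in the controls and 186 and 182 FPKM with ETS1 (log2 change -0.72, SE 0.028, limma adjusted p = 0.000439). CYC1, cytochrome c1 of complex III, stood at 112 and 115 FPKM against 74.4 and 72.5 FPKM (-0.62, limma adjusted p = 0.000482). NDUFB2, an accessory subunit of complex I, stood at 22.3 and 21.3 FPKM against 14.2 and 13.4 FPKM (-0.62, limma adjusted p = 0.00071). In these 3, picked for the size of their change, both ETS1 libraries were below both controls, as in 38.9% of all tested genes. Changes of the same sign were called for NDUFA12 (-0.59) and NDUFAB1 (-0.59) of complex I, SDHB (-0.25) of complex II, UQCRC1 (-0.51) and UQCR11 (-0.47) of complex III and COX6A1 (-0.43) and COX7C (-0.39) of complex IV. In complex V they were called for ATP5G1 (-0.48), ATP5I (-0.47) and ATP5H (-0.46). The 1 nuclear subunit called higher as deposited was NDUFA10 of complex I, named after its value was seen. It stood at 7.46 and 7.37 FPKM against 10.7 and 10.6 FPKM (0.47, limma adjusted p = 0.000723). Under quantile normalization 4 nuclear subunits were called higher, and rescaled to nuclear genes 6. Of all tested genes, 30.7% were called higher as deposited, 29.6% under quantile normalization and 45.5% rescaled to nuclear genes.

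**Figure D5:**
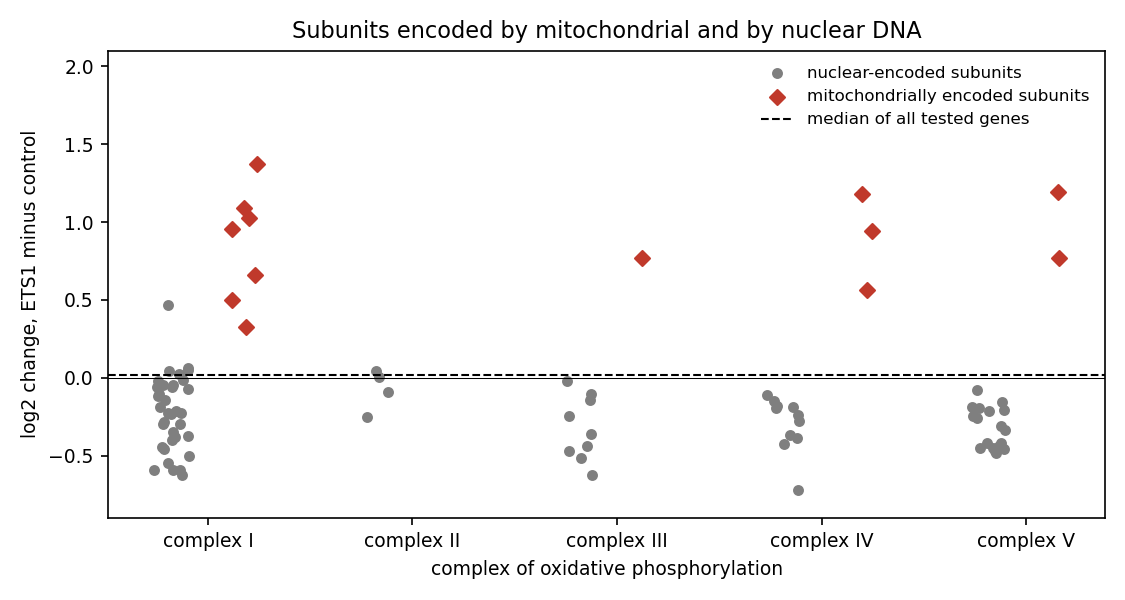
Log2 change, ETS1 minus control, of each tested subunit of complexes I to V, with subunits encoded by mitochondrial DNA and by nuclear DNA drawn separately within each complex. The mitochondrially encoded subunits lie above 0 as deposited (MT-ND3 does not under quantile normalization), and most nuclear ones lie below it, with medians of 0.94 and -0.24.

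The authors' deposited table of the same comparison held 21 of the mitochondrial genes, with 16 called higher, beside a background of 25.3% of the genes it gives such a p for. In the authors' deposited table the log2 change was 1.35 for MT-ND1, 0.30 for MT-ND3, 1.15 for MT-CO1, 0.39 for MT-RNR1, 1.05 for MT-RNR2 and 0.80 for MT-TP. These lay within 0.05 of the values above. The low-count tRNAs had far smaller changes there, as for MT-TC at 0.36 in the authors' deposited table with no adjusted p, against 1.69 for the ratio of its scaled reads.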

How the data were processed

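RNA of 4 TE5 libraries, 2 with ETS1 and 2 with the empty backbone, was sequenced in bulk. For the authors' processing, the submitters' processing notes name HISAT2, HTSeq and DESeq2 and the builds hg38 and GRCh38, without versions; the annotation and the strand setting are not given in the sources used here. The deposited values are FPKM per gene, per the file headers, and a second deposited table gives the authors' mean normalized count (a signal), log2 fold change, p-value and adjusted p-value for 16652 genes. FPKM values are whole multiples of what 1 read is worth, so reads were recovered. Of the values in that table, 99.7% came out whole within 0.05 read (10% by chance), as did all 88 mitochondrial values above 0 (the other 60 were 0).

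The main test was limma 3.58.1 (R 4.3.3) on log2(FPKM + 1), two-sided, with a trend on the prior variance, 2 residual and 2.84 prior degrees of freedom, and Benjamini-Hochberg adjustment over the 14306 genes whose FPKM averaged 1 or more; a call is an adjusted p under 0.05, taken before rounding. A fold on this scale understates the change of low genes. The fit was tested on simulated data. Single values per library were compared by exact permutation in Python 3.11.15 with scipy 1.17.1. Sequences and coordinates are from GENCODE 29 transcripts on GRCh38, read with biopython 1.88. Within a group, recovered reads of the 2 libraries differed beyond sampling (chi-square averaged over genes 3.91 in controls and 3.92 with ETS1, and 21.1 and 139.5 over 19 mitochondrial genes), so they were kept as separate replicates. Named genes were every mitochondrial gene, ETS1, cell type markers from a list, 6 factors (POLRMT, TFAM, TFB2M, TEFM, LRPPRC and SLIRP) and the 3 members of each nuclear list with the largest absolute change; others are said to have been chosen after their values were seen. The members and lists were chosen with earlier results of these data known. Alternatives covered the pseudocount, the filter, 3 scalings, the variance trend, voom on the recovered reads, the authors' table, a replicate block and leaving out each library.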

Additional observations from a re-analysis of the deposited data

How the results depend on the processing

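The number of mitochondrial genes called higher was 14 to 18 over the 11 alternatives with all 4 libraries, against 17, while 10.3% (no filter) to 45.5% (rescaled to nuclear genes) of all tested genes were called higher. MT-ND3 passed as lower under quantile normalization, as did MT-TT, on 1 read in each control, with no filter. With each library left out, 17 to 20 passed as higher, beside 19.9% to 27.7% of all tested genes; those beyond 17 were MT-TF, MT-TY and MT-TL1, whose few reads were not taken as calls there. Of 225 comparisons of the 15 mRNAs and rRNAs with an alternative, 220 kept direction and call, 4 lost the call (MT-ND3 and MT-CO2 with no filter, MT-ND2 and MT-ATP6 under quantile normalization) and 1 reversed, MT-ND3 at -0.29 under quantile normalization. The median change of the 13 mRNAs, 0.94, was 0.90 with trimmed-mean scaling, 0.62 with quantile normalization, 1.08 rescaled to nuclear genes and 0.92 in the authors' deposited table, and 0.91 to 0.98 when each library was left out. Genes called over the whole table numbered 8451 of 14306 tested (59.1%), 5562 of 8215 with mean FPKM at or above 5 (67.7%), where fewer genes were tested, 6860 of 35055 with no filter (19.6%), and 5790 to 7680 with each library left out. With the median in place of the mean, MT-ND6 against the heavy-strand mRNAs reversed to 0.12 and rRNAs against mRNAs to 0.23. MT-TL1 reversed to 0.39 without control replicate 1 and was -0.96 without control replicate 2. The cause of the other moves was not tested.

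The labels number the libraries 1 and 2 in each group without saying what a number marks, and deviations of same-numbered libraries correlated at -0.05 across 14306 genes. The replicate block gave 7283 genes called, 17 mitochondrial genes called and a median of 0.94. With 2 libraries a group, the spread is poorly known, and counts of a few reads limit the tRNAs.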
